A study of Mus musculus with 8 samples.

Results

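The serpin genes of the liver were studied in fasted mice that carry a phosphorylation-resistant form of perilipin 5 (PLIN5). The family was taken as every row of the gene count table whose symbol is Serpin, a clade letter from a to i, a number and, where present, a copy letter. This gave 64 of 45706 rows, or 63 symbols, because Serpinb10 stands under 2 gene identifiers, while 5 pseudogene rows ending in -ps were not matched. RNA was sequenced from the livers of 4 WT and 4 S155A mice, all C57BL/6J females aged 4 months that were fasted overnight after a chow diet. S155A mice are homozygous whole-body knock-ins made by CRISPR-Cas9, so the PLIN5 of every cell type that makes it has alanine in place of the serine phosphorylated by protein kinase A, and expression runs from the gene's own promoter. The comparison asked which hepatic genes depend on that phosphorylation upon fasting, and no fed liver was sequenced.

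The deposited table holds estimated counts, which summed to 45359070 to 54540864 in WT and 39709785 to 52309067 in S155A livers. Serpin genes took 2.44% to 3.03% of the counts of a liver. Levels are given as CPM, counts scaled to a common library total after TMM normalization, and mice are named by genotype and replicate. Animal numbers in the labels fall into a low series under 500 (WT 1, WT 4, S155A 1 and S155A 4) and a high series over 500 (WT 2, WT 3, S155A 2 and S155A 3), and the labels do not say what these numbers stand for. Hepatocytes are the labelled cell type of the liver extracts, and the hepatocyte markers Alb, Apoa1, Ttr, Trf and Cps1 together reached 94358 to 132803 CPM. Kupffer cell markers were also present at 148 to 360 CPM in sum (6 of 6 tested), so the extracts were not hepatocytes alone, and fewer cells of a type cannot be told apart from less RNA per cell. B and plasma cell markers (6 of 6 tested) stood at 2063 CPM in S155A 3 against 16.8 to 41.6 CPM in the other livers, and pancreatic acinar markers (1 of 7 tested) at 32.5 CPM in WT 2 against at most 0.612 CPM elsewhere. The part of these cells in the serpin values was not tested. Counts of serpins at an unadjusted p under 0.05 without those livers are given with each edgeR test. The matching share of all genes was not counted. Counts of serpins that crossed between series or did not overlap were not repeated without them. A codon change cannot be seen in gene counts, so the counts do not check the genotype labels.

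Serpins are proteins of a shared fold, most of which inhibit serine proteases. An exposed reactive centre loop near the carboxyl end is offered to the protease as bait, and when the protease cuts it the loop inserts into the body of the serpin and traps the enzyme. The liver secretes most of the serpins of plasma, where they hold back neutrophil elastase, thrombin, plasmin, plasma kallikrein and the proteases that start the complement cascade. Some members inhibit nothing and carry hormones or help collagen to fold instead. Clade A holds the secreted antitrypsins and antichymotrypsins, clades C to G other secreted inhibitors, clade H a collagen chaperone, clade I neuroserpin and its relative, and clade B the serpins that stay inside cells. In mice, the genes for antitrypsin and antichymotrypsin have multiplied into rows of neighbouring copies whose loops differ.

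The 5 antitrypsin copies Serpina1a to Serpina1e lie at chr12:103728156-103958975 of GRCm38, all on the reverse strand, in the gene annotation GENCODE M21. Their coding sequences are identical to each other at 96.3% to 98.5% of aligned bases over the 10 pairs. The loop is less alike than the whole, at 84.85% to 93.94% of bases. Most differing bases still lie outside it. Serpina1a and Serpina1b differ at 37 aligned coding bases, 6 of them in the loop, and Serpina1a and Serpina1c at 19, 9 of them in the loop. Its coding stretch is shown as 1 example of the differences, spread along the transcripts, on which the division of reads among the copies can rest. Each stretch has 66 bases, is read 5′ to 3′ in the direction of transcription from the GRCm38 genome, and has capitals at bases that differ from Serpina1a.
Serpina1a (chr12:103853765-103853830): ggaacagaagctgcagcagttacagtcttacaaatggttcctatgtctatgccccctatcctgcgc
Serpina1b (chr12:103728332-103728397): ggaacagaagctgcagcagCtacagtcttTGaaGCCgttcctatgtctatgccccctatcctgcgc
Serpina1c (chr12:103895102-103895167): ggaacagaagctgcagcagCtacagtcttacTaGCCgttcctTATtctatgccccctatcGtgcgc
Serpina1d (chr12:103763770-103763835): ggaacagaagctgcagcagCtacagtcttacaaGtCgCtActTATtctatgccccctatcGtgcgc
Serpina1e (chr12:103947108-103947173): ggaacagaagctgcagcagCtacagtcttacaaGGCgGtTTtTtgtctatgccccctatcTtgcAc
Serpina1b differs from Serpina1a at 6 of the 66 bases, Serpina1c and Serpina1d at 9 each, and Serpina1e at 10. Serpina1c and Serpina1d are the closest pair in the loop, with 4 differing bases.

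A stretch upstream of these genes is alike in the 5 copies, and it is shown because Serpina1e, unlike the other 4, had low counts. The windows below have 104 bases, end 8 bases past the only match to GTTAAT in each RefSeq promoter (GRCm38.p6, reverse strand), and carry that match in capitals. GTTAAT is part of the site bound by the hepatocyte factor HNF1.
Serpina1a (chr12:103863627-103863730): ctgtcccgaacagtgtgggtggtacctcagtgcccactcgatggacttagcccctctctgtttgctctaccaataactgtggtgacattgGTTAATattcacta
Serpina1b (chr12:103738202-103738305): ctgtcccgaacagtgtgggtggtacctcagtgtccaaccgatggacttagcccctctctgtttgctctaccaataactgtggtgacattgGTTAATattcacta
Serpina1c (chr12:103904964-103905067): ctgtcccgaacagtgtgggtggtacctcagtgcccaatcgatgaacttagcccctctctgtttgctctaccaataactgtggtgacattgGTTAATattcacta
Serpina1d (chr12:103773636-103773739): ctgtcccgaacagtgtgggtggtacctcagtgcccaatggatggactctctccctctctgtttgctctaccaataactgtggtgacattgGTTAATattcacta
Serpina1e (chr12:103956962-103957065): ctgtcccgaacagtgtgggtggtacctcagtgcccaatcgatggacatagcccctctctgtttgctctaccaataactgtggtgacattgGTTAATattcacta
Serpina1e differs from Serpina1a at 2 of these 104 positions, as Serpina1c does, while Serpina1b differs at 3 and Serpina1d at 6. By RefSeq the match ends 15, 20, 21 and 10 bases before the start of Serpina1a, Serpina1b, Serpina1c and Serpina1d and 72 bases before that of Serpina1e. These distances depend on the annotation. GENCODE M21 starts Serpina1a, Serpina1c and Serpina1d farther from the match, at 103863562, 103904887 and 103773592. Its Serpina1b and Serpina1e genes start at 103830373 and 103958975, so that their windows lie inside the genes. The part of this distance in the counts of Serpina1e was not tested. RefSeq promoters of 300 bases were matched for 22 of the 30 serpin genes tested. These 22 genes had 26 promoters. On either strand, GTTAAT was found for 7 of the 22 genes, the 5 antitrypsin copies, Serpina7 and Serpinb8. Of all 32851 promoters, 7.1% held it, a share of promoters and not of genes. The 5 copies have nearly the same promoter, so they are not separate observations.

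The antichymotrypsin cluster, 11 genes of the table, spans chr12:104112724-104414329. Serpina3k, Serpina3m and Serpina3n, its abundant members, are identical in 83.4% to 91.8% of aligned coding bases over 3 pairs, while their loops share fewer bases. Loop-coding stretches of these 3 genes, all on the forward strand of GRCm38, are shown with capitals at bases that differ from Serpina3n.
Serpina3n (chr12:104413448-104413522): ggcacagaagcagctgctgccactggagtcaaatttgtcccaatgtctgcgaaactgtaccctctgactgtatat
Serpina3m (chr12:104393769-104393843): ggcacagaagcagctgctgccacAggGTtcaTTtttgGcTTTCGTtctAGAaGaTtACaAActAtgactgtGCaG
Serpina3k (chr12:104345269-104345337): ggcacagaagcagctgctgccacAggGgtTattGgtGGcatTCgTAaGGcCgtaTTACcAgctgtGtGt
After shared hinge codons the loops of Serpina3m and Serpina3k differ from that of Serpina3n in 25 and 26 aligned positions, 6 of the latter being gaps, which leaves 66.7% and 65.3% of positions identical.

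Of the 64 serpin rows, 30 had enough counts to be tested and 34 did not. Among the 34, 20 had no count in any liver and 14 had counts of at most 23, or 0.454 CPM, in any liver. Clade A supplied 25 rows, of which 16 were tested. Clade B supplied 28 rows, of which only Serpinb1a, Serpinb6a, Serpinb6b, Serpinb8 and Serpinb9 were tested and 15 had no count, the 4 Serpinb3 copies among them. Both clade F genes, 1 of the 2 clade I genes and the lone genes of clades C, D, G and H were tested. Serpina5, the protein C inhibitor, had a single count in 1 liver. Serpini2, a serpin of the exocrine pancreas, had no count in any liver, WT 2 included.

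The tested serpins differed widely in level (the plot of serpin levels), and were compared with each other per kilobase of transcript. Serpina1b was highest at 3484 CPM per kb on average (range 2892 to 4047 over 8 livers), followed by Serpina1d at 2540.3, Serpina1a at 2468, Serpina1c at 2411 and Serpina3k at 2037. The lowest liver for Serpina3k, at 1126 CPM per kb, was above the highest for Serpinc1, the next gene, at 510.1, and every other pair of neighbours in the order overlapped over the 8 livers. Lengths were those of the transcript with the longest coding sequence, 2.06 kb for Serpina3k and 4.97 kb for Serpinc1, and the order depends on that choice. In CPM not divided by length these 2 genes overlapped, with a lowest liver of 2316 for Serpina3k and a highest of 2535 for Serpinc1. Serpinc1, Serping1, Serpinf2, Serpinf1, Serpina3n, Serpina3m, Serpind1 and Serpina6 followed, from 461 to 143 CPM per kb. Serpina10, Serpina11, Serpina1e, Serpinb1a and Serpina7 came next, from 45.0 to 13.9 CPM per kb. The remaining 12 genes had means of 9.45 CPM per kb or less. Serpina1e, whose promoter window nearly matches those of the other antitrypsin copies, averaged 17.1 CPM per kb.

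**Figure D1:**
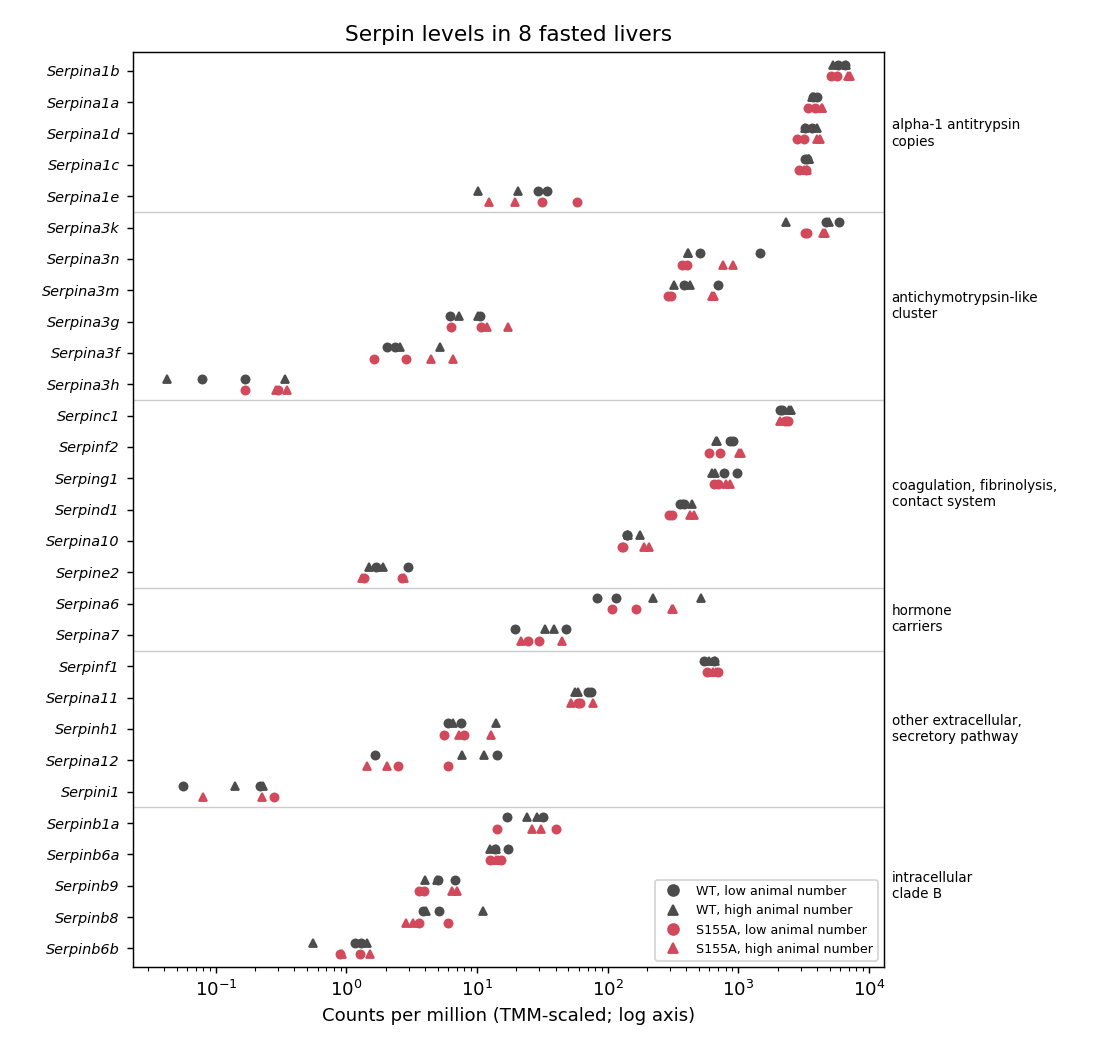
Each point is the level of 1 of 29 serpin genes in 1 liver in CPM on a log axis, grouped by role, with WT in grey, S155A in red, circles for low and triangles for high animal numbers; Serpini1 had no count in S155A 4, which is not drawn. WT and S155A livers overlap in every gene drawn, while Serpina6, Serpina10 and Serpina1e separate circles from triangles.

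No serpin differed between S155A and WT livers at an adjusted p under 0.05 by edgeR's quasi-likelihood test, and neither did any of the 14629 genes tested (percent called 0). The smallest adjusted p was 0.758 over all genes and 0.993 over the serpins. DESeq2 called 6 genes (0.041%), none a serpin. At an unadjusted p under 0.05 edgeR found 497 genes (3.4%; 1.42% higher and 1.98% lower in S155A) and 1 of 30 serpins (3.33%), Serpina12, which was lower. The number was 0 without S155A 3 and 2 without WT 2. No serpin kept its WT and S155A livers apart, against 337 genes (2.3%) overall. The log2 difference was positive in 15 serpins and negative in 15, and lay within 0.2 of 0 in 22 of them. The median standard error of the serpin differences was 0.28, compared with 0.19 over all genes tested.

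**Figure D2:**
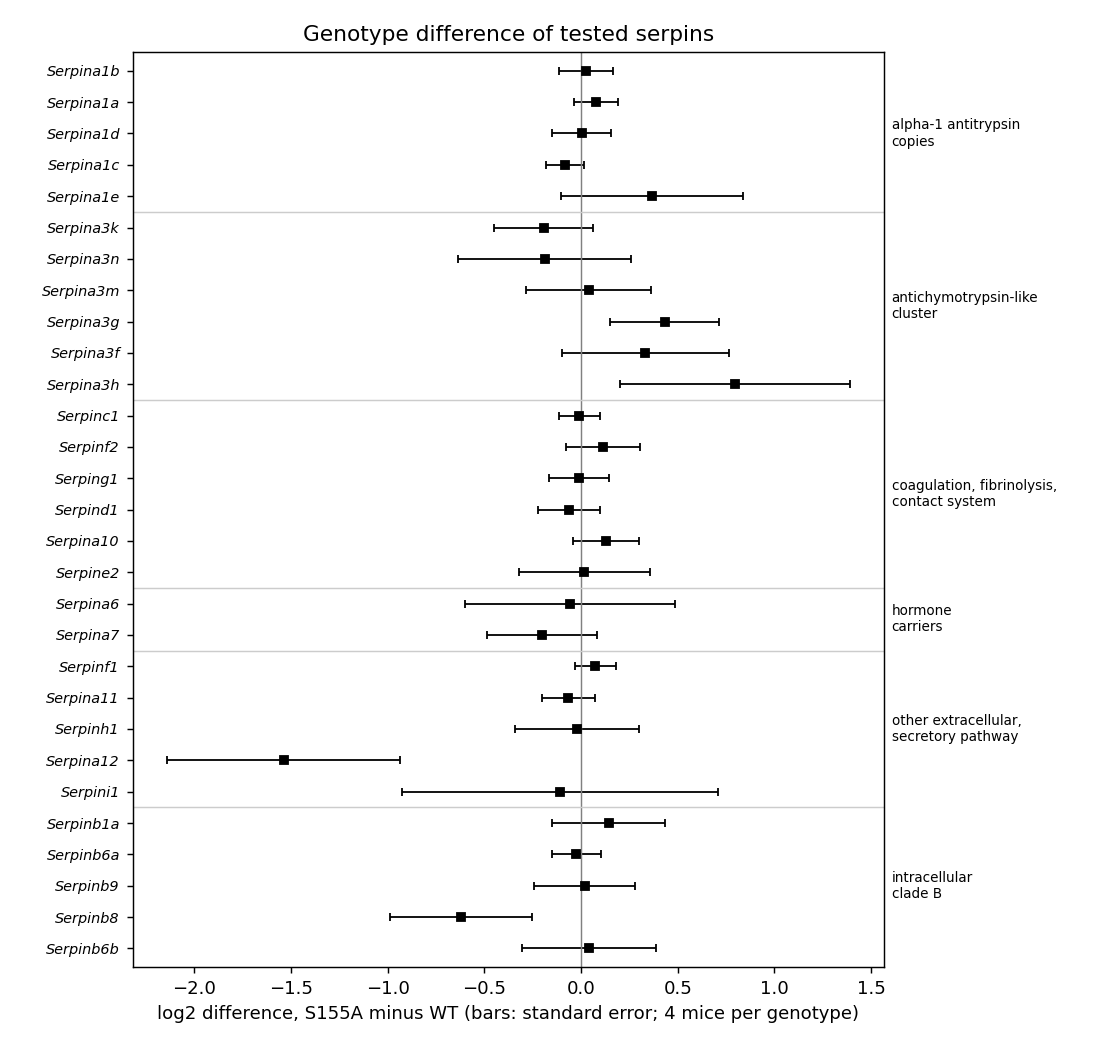
Points are the log2 difference S155A minus WT of 29 tested serpins from edgeR, bars are its standard error, and genes are grouped by role with 4 livers per genotype. Most points lie within 0.2 of 0, and Serpina12 at -1.54 is the farthest.

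Serpina12 encodes vaspin, a secreted serpin best known from fat tissue and linked to insulin sensitivity. Serpina12 was at 1.64, 11.3, 7.66 and 14.1 CPM in WT 1 to WT 4 and 2.46, 1.45, 2.06 and 5.95 CPM in S155A 1 to S155A 4. WT 1 was as low as the S155A livers and S155A 4 lay among the WT range, so the genotypes overlapped. The mean was 8.68 ± 5.38 CPM (SD, 4 livers) in WT and 2.98 ± 2.02 CPM in S155A, and the log2 difference was -1.54 (SE 0.60), with an edgeR adjusted p of 0.993 and a two-sided exact permutation p of 0.143, where the smallest possible is 0.0286. The difference ranged from -2.12 without S155A 4 to -1.20 without WT 4. In the high series the WT livers were both above the S155A livers, by 2.40 on the log2 scale, whereas in the low series they overlapped.

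The antitrypsin copies differed little between genotypes. Serpina1b reached 6539.8, 6625, 5324 and 5823 CPM in WT 1 to WT 4 and 5097, 6859.5, 7131 and 5709 CPM in S155A 1 to S155A 4. Serpina1a measured 4026, 3813, 3659 and 3693 CPM in WT 1 to WT 4 and 3419, 4390.3, 4379.8 and 3838 CPM in S155A 1 to S155A 4. Serpina1d was at 3654, 4010.3, 3249 and 3237 CPM in WT 1 to WT 4 and 2801, 4020.0, 4194 and 3165 CPM in S155A 1 to S155A 4. In each of these 3 genes the lowest liver was S155A 1 and the 2 highest S155A livers were S155A 2 and S155A 3. Serpina1c reached 3208, 3444, 3499 and 3343 CPM in WT 1 to WT 4 and 2927, 3205, 3331 and 3289 CPM in S155A 1 to S155A 4. This copy had the smallest spread, with S155A 1 again lowest. Serpina1e measured 29.1, 10.1, 20.7 and 34.1 CPM in WT 1 to WT 4 and 31.4, 12.4, 19.3 and 58.0 CPM in S155A 1 to S155A 4. For this copy WT 2 was the lowest and S155A 4 the highest liver. Log2 differences of the 5 copies ran from -0.08 (SE 0.10) for Serpina1c to 0.37 (SE 0.47) for Serpina1e.

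Reads of copies this similar may have been divided among them by salmon's model, and GENCODE M21 places Serpina1d inside the span of Serpina1b on the same strand, so the copies were also summed before testing. The sum of the 5 copies was at 17458, 17897, 15752 and 16131 CPM in WT 1 to WT 4 and 14274, 18492, 19058 and 16057 CPM in S155A 1 to S155A 4. The sums overlapped, with a log2 difference of 0.01 (SE 0.13, edgeR adjusted p = 0.998). Within the sum Serpina1b held 33.8% to 37.5% of it, Serpina1a 21.3% to 23.9%, Serpina1d 19.6% to 22.4%, Serpina1c 17.3% to 22.2% and Serpina1e 0.0566% to 0.361%.

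In the antichymotrypsin cluster, whose members inhibit chymotrypsin-like proteases and kallikreins and in part respond to inflammation, Serpina3k, Serpina3n and Serpina3m carried nearly all counts. Serpina3k reached 5902, 2316, 4958 and 4699.9 CPM in WT 1 to WT 4 and 3371, 4567, 4464 and 3241 CPM in S155A 1 to S155A 4. WT livers held both the highest and the lowest value, WT 1 and WT 2. Serpina3n measured 1456, 414, 409 and 508 CPM in WT 1 to WT 4 and 367, 768, 906 and 405 CPM in S155A 1 to S155A 4. WT 1 stood far above the other livers, S155A 2 and S155A 3 followed, and the other 5 livers lay between 367 and 508 CPM. Serpina3m was at 695, 423, 321 and 382 CPM in WT 1 to WT 4 and 287, 626, 652 and 306 CPM in S155A 1 to S155A 4. The same 3 livers were highest. For Serpina3n the log2 difference of -0.19 (SE 0.45) became 0.47 without WT 1, and for Serpina3m 0.04 (SE 0.32) became 0.32.

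Serpina3g encodes an inhibitor of cysteine cathepsins in lymphocytes. Serpina3g reached 6.23, 10.1, 7.28 and 10.6 CPM in WT 1 to WT 4 and 10.7, 17.2, 11.9 and 6.34 CPM in S155A 1 to S155A 4. S155A 2 was highest and the genotypes overlapped, at a log2 difference of 0.43 (SE 0.28). Serpina3h, a pseudogene in GENCODE M21, had between 2 and 17 counts in a liver. Serpina3h measured 0.168, 0.339, 0.0421 and 0.0789 CPM in WT 1 to WT 4 and 0.167, 0.351, 0.290 and 0.296 CPM in S155A 1 to S155A 4. Its genotypes overlapped at a log2 difference of 0.80 (SE 0.59). The sum of the whole Serpina3 cluster was at 8062, 3168, 5697 and 5604 CPM in WT 1 to WT 4 and 4038, 5987, 6041 and 3960.2 CPM in S155A 1 to S155A 4. The cluster sum overlapped as well, at -0.17 (SE 0.26, edgeR adjusted p = 0.993), and Serpina3k made up 73.1% to 87.0% of it, Serpina3n 7.17% to 18.1% and Serpina3m 5.63% to 13.4%. GENCODE M21 places Serpina3k inside the span of Serpina3m on the same strand, so the split between these genes is uncertain.

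Among the inhibitors of coagulation, fibrinolysis and the contact system, all 5 abundant genes overlapped between genotypes. Serpinc1 encodes antithrombin, the main inhibitor of thrombin and factor Xa. Serpinc1 reached 2151, 2535, 2419 and 2092 CPM in WT 1 to WT 4 and 2377, 2375, 2099.9 and 2291 CPM in S155A 1 to S155A 4. The 8 livers lay close together, with WT 2 highest and WT 4 lowest. Serpind1 encodes heparin cofactor II, another thrombin inhibitor. Serpind1 measured 381, 441, 374 and 359.8 CPM in WT 1 to WT 4 and 292, 461, 427 and 310.3 CPM in S155A 1 to S155A 4. S155A 1 and S155A 4 were the lowest. Serpina10 encodes the inhibitor of factor Xa that works with protein Z. Serpina10 was at 141, 175, 144 and 141 CPM in WT 1 to WT 4 and 129, 208, 189 and 132 CPM in S155A 1 to S155A 4. S155A 2 and S155A 3 were the highest, followed by WT 2.

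Serpinf2 encodes antiplasmin, which stops plasmin and so protects clots. Serpinf2 reached 859.8, 669.8, 685 and 909.7 CPM in WT 1 to WT 4 and 599, 1040.1, 1017 and 721 CPM in S155A 1 to S155A 4. S155A livers held the 2 highest and the lowest values. Serping1 encodes the C1 inhibitor of complement and contact proteases. Serping1 measured 974, 665, 629.8 and 774 CPM in WT 1 to WT 4 and 654, 862, 803 and 703 CPM in S155A 1 to S155A 4. WT 1 was highest and WT 3 lowest. Log2 differences of these 5 genes were between -0.06 (SE 0.16) for Serpind1 and 0.13 (SE 0.17) for Serpina10. Serpine2, protease nexin, ranged from 1.32 to 2.96 CPM over all livers.

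Both hormone carriers overlapped between genotypes. Serpina6 encodes corticosteroid-binding globulin. Serpina6 was at 82.1, 516, 223 and 115 CPM in WT 1 to WT 4 and 108, 315, 313 and 164 CPM in S155A 1 to S155A 4. WT 2 was highest, and the 4 livers of the low series were the 4 lowest. Serpina7 encodes thyroxine-binding globulin. Serpina7 reached 19.4, 38.5, 33.3 and 47.5 CPM in WT 1 to WT 4 and 30.0, 44.7, 21.5 and 24.3 CPM in S155A 1 to S155A 4. WT 4 was highest and WT 1 lowest. Log2 differences were -0.06 (SE 0.54) for Serpina6 and -0.20 (SE 0.29) for Serpina7.

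Among the other secreted serpins, Serpinf1 encodes pigment epithelium-derived factor, an antiangiogenic protein that inhibits no protease. Serpinf1 measured 547, 668, 600.1 and 648 CPM in WT 1 to WT 4 and 574, 676, 641 and 703 CPM in S155A 1 to S155A 4. Serpina11 was at 70.9, 56.4, 59.6 and 74.5 CPM in WT 1 to WT 4 and 59.7, 76.4, 52.7 and 61.1 CPM in S155A 1 to S155A 4. Neither gene separated the genotypes, with log2 differences of 0.07 (SE 0.11) for Serpinf1 and -0.06 (SE 0.14) for Serpina11. Serpinh1, the collagen chaperone HSP47 of matrix-forming cells, ranged from 5.58 to 14.0 CPM, with WT 2 and S155A 3 highest. Serpini1, neuroserpin, stayed at 0.278 CPM or less.

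Intracellular clade B serpins protect cells from their own granule and lysosomal proteases. Serpinb1a inhibits neutrophil granule proteases. Serpinb1a reached 16.9, 28.7, 24.0 and 31.8 CPM in WT 1 to WT 4 and 14.2, 31.0, 26.5 and 40.4 CPM in S155A 1 to S155A 4. The lowest and the highest liver were both S155A, S155A 1 and S155A 4. Serpinb6a inhibits cathepsin G. Serpinb6a measured 13.7, 13.9, 12.5 and 17.2 CPM in WT 1 to WT 4 and 12.6, 14.0, 14.6 and 15.3 CPM in S155A 1 to S155A 4. Its log2 levels spread least among the clade B genes tested, with an SD of 0.15 over the 8 livers. Serpinb8 inhibits furin. Serpinb8 was at 3.84, 4.08, 11.05 and 5.11 CPM in WT 1 to WT 4 and 3.58, 3.25, 2.88 and 5.95 CPM in S155A 1 to S155A 4. WT 3 alone was high, and the log2 difference of -0.62 (SE 0.37) became -0.15 without it. Serpinb9, the granzyme B inhibitor, ranged from 3.61 to 7.07 CPM and Serpinb6b from 0.558 to 1.5 CPM. Summed over copies, Serpinb1 gave a log2 difference of 0.14 (SE 0.29) and Serpinb6 of -0.02 (SE 0.12). The Serpinb1 copies together reached 17.0, 28.8, 24.1 and 32.0 CPM in WT 1 to WT 4 and 14.3, 31.3, 26.6 and 40.4 CPM in S155A 1 to S155A 4. The Serpinb6 copies together measured 14.9, 14.6, 14.0 and 18.5 CPM in WT 1 to WT 4 and 13.8, 14.9, 16.0 and 16.2 CPM in S155A 1 to S155A 4. Both sums overlapped between genotypes, and Serpinb1a and Serpinb6a made up at least 98.9% and 89.7% of them.

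The genotype difference of several serpins pointed one way in the low series and the other way in the high series (the plot of differences within each series). S155A livers were lower than WT in 22 of 30 serpins in the low series and higher in 22 of 30 in the high series, from 2 livers against 2 in each. The share of all genes with these signs was not counted, so these counts alone do not set the serpins apart. Near-identical copies are among the 30, which are therefore not 30 separate observations. The interaction tested below was positive in 19 of 30 serpins, beside 49.1% of all genes. In 8 serpins (26.7%) the 2 S155A livers were both below the WT livers in the low series and both above them in the high series, compared with 697 of all genes tested (4.76%). These were Serpina1b, Serpina1d, Serpina3m, Serpina3n, Serpina10, Serpinb9, Serpinf2 and Serping1. The opposite crossing occurred in Serpinc1 alone (3.33%), compared with 690 genes (4.72%).

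**Figure D3:**
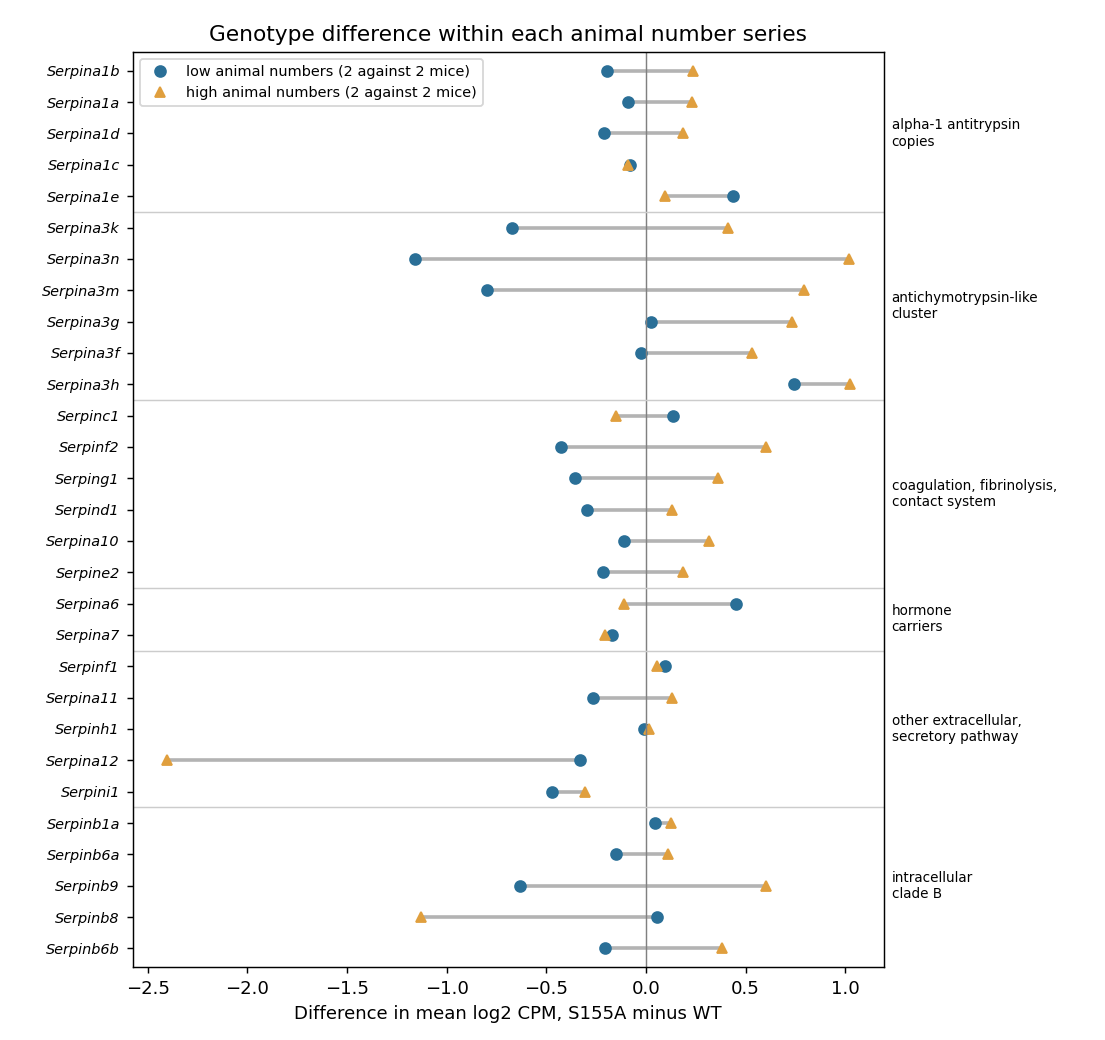
Each row gives the S155A minus WT difference in mean log2 CPM of a tested serpin, with a blue circle for the low and an orange triangle for the high animal number series, 2 livers against 2 in each. In 21 of 29 rows drawn the circle lies left of 0 and in 22 of 29 the triangle lies right of 0, with the widest gap to the right in Serpina3n.

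The difference between the series was tested as an interaction in edgeR. No serpin and no gene passed an adjusted p of 0.05 (percent called 0), the smallest being 0.21 for a serpin and 0.0851 overall. At an unadjusted p under 0.05 there were 7 serpins (23.3%) and 1622 genes (11.1%). All 7 were more positive in the high series, a direction taken by 881 genes (6.02%), and none was more negative, as 741 genes were (5.07%). DESeq2 called 285 genes (1.95%) and 3 serpins (10%), Serpinf2, Serpina3n and Serpina3m. Without S155A 3, the liver with B and plasma cell RNA, the number of serpins at an unadjusted p under 0.05 was 6, and without WT 2, the liver with acinar RNA, it was 10. The share of all genes at that p without either liver was not counted, so these numbers do not set the serpins apart.

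Serpinf2 had the smallest p of the serpins. Its WT livers measured 859.8 and 909.7 CPM in the low series and 669.8 and 685 CPM in the high series, while S155A livers measured 599 and 721 CPM in the low and 1040.1 and 1017 CPM in the high series. WT was thus lower and S155A higher in the high series, with no overlap in either. For Serpinf2 the genotype difference was -0.43 in the low and 0.60 in the high series in mean log2 CPM, and the interaction was 1.02 (SE 0.19, edgeR adjusted p = 0.21). For Serpina3n the genotype difference was -1.16 in the low and 1.02 in the high series in mean log2 CPM, and the interaction was 2.37 (SE 0.55, edgeR adjusted p = 0.257). WT 1 carried much of the Serpina3n value, which was 1.43 without that liver. For Serpina3m the genotype difference was -0.80 in the low and 0.79 in the high series in mean log2 CPM, and the interaction was 1.64 (SE 0.36, edgeR adjusted p = 0.253). Without WT 1 it was 1.15. Without WT 4, Serpina3n and Serpina3m passed the edgeR test at adjusted p = 0.00765 and 0.0391, and no serpin passed when another liver was left out.

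The other 4 serpins at an unadjusted p under 0.05 were Serpinb9 with an interaction of 1.25 (SE 0.33), Serping1 with 0.73 (SE 0.20), Serpina3k with 0.99 (SE 0.42) and Serpind1 with 0.42 (SE 0.18). Serpinb9, of lower level, measured 6.75 and 5.03 CPM in WT and 3.61 and 3.89 CPM in S155A livers of the low series, against 3.96 and 4.90 CPM in WT and 6.39 and 7.07 CPM in S155A livers of the high series. Its groups did not overlap in either series. Serpina12 went the other way, with an interaction of -1.54 (SE 1.15, edgeR adjusted p = 0.661). For the antitrypsin sum the interaction was 0.31 (SE 0.20, edgeR adjusted p = 0.617), and for the antichymotrypsin sum 1.21 (SE 0.38, edgeR adjusted p = 0.321).

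**Figure D4:**
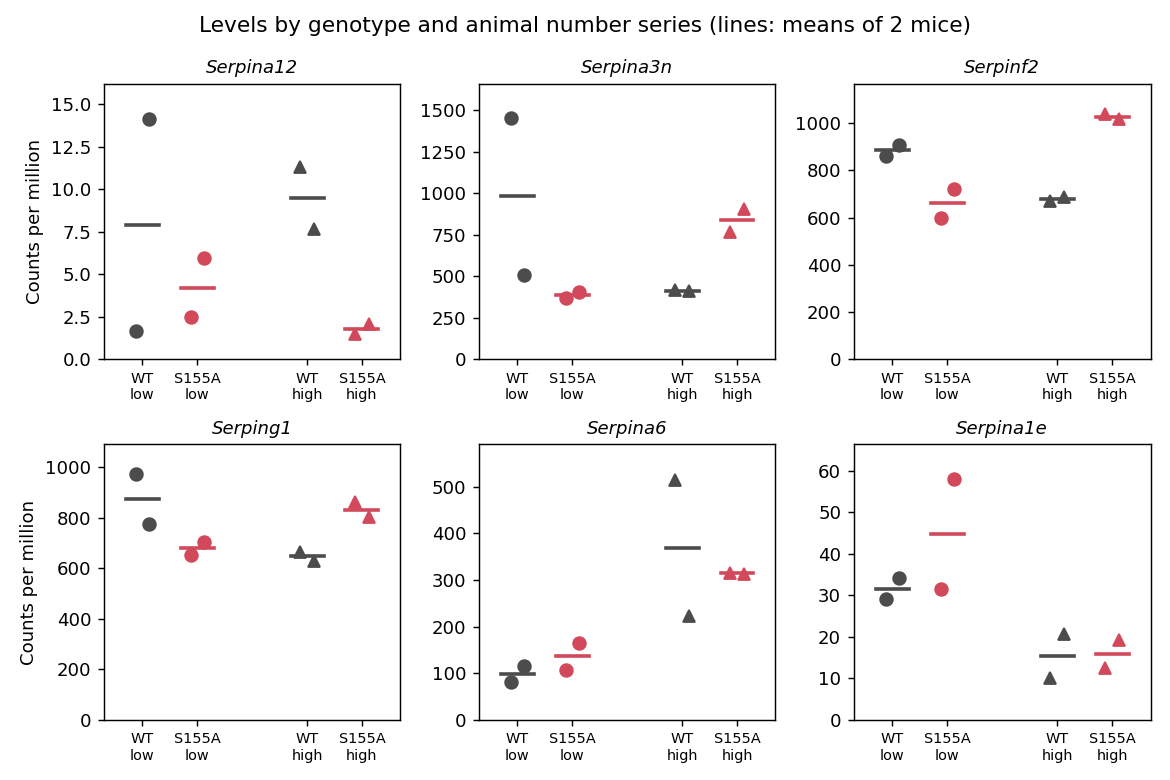
Points are levels in CPM of 6 serpins in single livers, by genotype and animal number series, and lines are means of 2 livers. Serpina3n, Serpinf2 and Serping1 cross between the series, Serpina6 is higher and Serpina1e lower in the high series, and S155A livers of the high series are the lowest for Serpina12 together with WT 1.

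Levels were also compared between the series. With genotype in the model, edgeR called no gene at an adjusted p under 0.05 (percent called 0), and the smallest adjusted p was 0.0618 overall and 0.108 for a serpin. At an unadjusted p under 0.05 it found 5 serpins (16.7%) and 1877 genes (12.8%), with 4 of the serpins higher in the high series (all genes 6.64%) and 1 lower (all genes 6.19%). The number of serpins was also 5 without S155A 3 and without WT 2. DESeq2 called 3 serpins (10%), Serpina6, Serpina1e and Serpina3f, and 406 genes (2.78%). Serpina6, Serpina10 and Serpina1e kept the 4 livers of each series apart (10% of serpins), as 1002 genes did (6.85%).

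Serpina6 was 1.55 higher on the log2 scale in the high series (SE 0.28, edgeR adjusted p = 0.108). Its low series livers lay between 82.1 and 164 CPM and its high series livers between 223 and 516 CPM, in both genotypes. Serpina1e was lower in the high series, at a log2 difference of -1.27 (SE 0.28, edgeR adjusted p = 0.159), with 29.1 to 58.0 CPM in the low and 10.1 to 20.7 CPM in the high series. Serpina10 was 0.39 higher (SE 0.12, edgeR adjusted p = 0.251), Serpina3f 1.06 higher (SE 0.30, adjusted p = 0.232) and Serpind1 0.35 higher (SE 0.12, adjusted p = 0.278). Serpina1e and Serpina6 passed the edgeR test at adjusted p = 0.0334 each when WT 3 was left out. The other antitrypsin copies had series differences of at most 0.27.

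Genes that work with serpins were counted from lists. None of the 16 target proteases tested of 19, 14 other plasma protease inhibitors of 15, 12 transcription factors and signalling genes of hepatocytes and the acute phase, 15 acute phase proteins or 11 genes of ER folding and export of glycoproteins passed the genotype test. The median log2 difference was 0.02 for target proteases, -0.01 for other inhibitors, 0.07 for the transcription list, -0.12 for acute phase proteins and 0.07 for the ER list, beside -0.005 over all genes. Of the target proteases, F7 and C1s1 had the smallest p in each direction, with log2 differences of 0.35 and -0.14. Of the other inhibitors these were Kng1, a kininogen, with 0.17 and Mug2, a murinoglobulin that traps proteases of many kinds, with -0.49, the latter at an unadjusted p under 0.05. Cebpd, an acute phase transcription factor, with 0.68 and Il6st, the shared receptor chain of interleukin 6 signalling, with -0.22 were the corresponding genes of the transcription list, Cebpd also at an unadjusted p under 0.05. In the ER list they were Hspa5, the chaperone BiP, with 0.56 and Man1b1 with -0.07, and in the acute phase list Saa4 with 0.77 and Fgg with -0.22.

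In the interaction with animal series, 11 of the 15 acute phase proteins had an unadjusted p under 0.05 and a more positive genotype difference in the high series, as did 7 of 11 ER genes, 6 of 14 other inhibitors, 5 of 16 target proteases and 4 of 12 transcription genes, beside 6.02% of all genes. In the opposite direction only Foxa2, a hepatocyte transcription factor, had an unadjusted p under 0.05 among these lists, with an interaction of -0.73, beside 5.07% of all genes. The acute phase proteins, none of which is a serpin, summed to 27125 and 20906 CPM in WT and 17866 and 15111 CPM in S155A livers of the low series. In the high series they summed to 16795 and 16380 CPM in WT and 22621 and 19724 CPM in S155A livers. Thus this sum crossed between the series as Serpina3n, Serpina3m, Serpinf2 and Serping1 did. Median genotype differences of the list were -0.69 in the low and 0.50 in the high series. Kupffer cell markers in sum were 202 and 305 CPM in WT and 253 and 168 CPM in S155A livers of the low series, and 148 and 186 CPM against 360 and 257 CPM in the high series. Of the 6 Kupffer cell markers, 4 had an unadjusted p under 0.05 and a positive interaction, and the median interaction was 1.42. Neutrophil markers (4 of 6 tested) summed to 4.57 and 7.64 CPM in WT and 6.32 and 3.36 CPM in S155A livers of the low series, and to 9.74 and 5.68 CPM against 16.1 and 10.8 CPM in the high series. Their median genotype difference was -0.43 in the low and 1.18 in the high series, with 1 of 4 at an unadjusted p under 0.05 in the interaction. When the series were compared, 3 of 4 were higher in the high series at an unadjusted p under 0.05, beside 6.64% of all genes. Mesothelial markers (3 of 3 tested) summed to 2.46 and 5.33 CPM in WT and 1.19 and 3.12 CPM in S155A livers of the low series, and to 1.22 and 1.33 CPM against 2.69 and 5.65 CPM in the high series, with 2 of 3 at an unadjusted p under 0.05 and a median interaction of 3.02.

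In sum, hepatocyte markers crossed between the series as well, a sum made up mostly of Alb at 63032 to 97357 CPM. Alb, Apoa1, Ttr, Trf and Cps1 together were at 111287 and 106974 CPM in WT and 102089 and 94358 CPM in S155A livers of the low series, and at 106751 and 98285 CPM against 128353 and 132803 CPM in the high series, with no overlap in either. Of these 5 genes, Alb (0.61) and Cps1 (1.74) had an interaction at an unadjusted p under 0.05. The interaction was 0.18 for Apoa1, 0.09 for Trf and -0.21 for Ttr, with a median of 0.18 over the list. Alb alone crossed without overlap in either series, so the crossing of the sum does not hold for each marker. Among markers of other cells, 3 of 6 B and plasma cell markers had a positive interaction at an unadjusted p under 0.05. So did 1 of 6 T and NK cell and 1 of 6 endothelial markers, beside 6.02% of all genes. None of the 8 stellate, 4 cholangiocyte, 3 platelet or 1 acinar markers tested did. The 3 B and plasma cell markers, Igkc, Ighm and Jchain, were high in S155A 3 alone. They stood there at 806, 1163 and 73.8 CPM, against at most 21.2, 18.1 and 2.07 CPM in any other liver. The part of these cells, of hepatocyte transcripts at large and of the acute phase in the serpin values was not tested.

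Each serpin whose values are given for every liver had at least 70 counts in each of them, except Serpina3h. Of the 30 tested serpins, 10 overlap another gene in GENCODE M21, 4 of them (Serpina1c, Serpinc1, Serpind1 and Serpinb6a) a gene on the other strand. Whether the counting used strand is not given in the sources used here, so reads of such neighbours may be included.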

How the data were processed

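Liver RNA of 8 mice, 1 library each, was analysed. Estimated counts of each gene, which the authors obtained with salmon and corrected for the average transcript length of each sample, were used as deposited; the submitters' processing notes also list STAR and DESeq2 and the build GRCm38, and versions, annotation release and strand setting are not given in the sources used here. The estimated counts were rounded, filtered with filterByExpr and TMM-normalized, and tested in R 4.3.3 with edgeR 4.0.16 (quasi-likelihood F test) and Benjamini-Hochberg adjustment over 14629 genes; salmon's division of reads among near-identical copies can move single copies, so sums were tested too. Standard errors come from the F statistic, and 2 was the prior count for log2 CPM. DESeq2 1.42.0, limma 3.58.1 (voom) and other scalings, filters and blocks were alternatives. Tests were checked on simulated data. Nothing states whether the mice were littermates. The edgeR p-values set a difference against the variation that the fitted model leaves among these 8 livers, moderated across genes. For the interaction that variation comes from 2 livers per genotype and series. Each liver's values are given for tested serpins of at least 10 CPM on average, for up to 3 with the smallest p in each direction, and for any called or non-overlapping. Of the 30 tested serpins, 1 is counted but not reported here by name or drawn. Members and gene lists were chosen with earlier results of these data known. Loops were located by motif in translated GENCODE M21 coding sequences (Biopython), from the hinge motif to the codon before a conserved F-x-x-P-F. Differing bases were then marked by pairwise alignment.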

Additional observations from a re-analysis of the deposited data

Results flagged for a closer look

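Serpina10 in WT 2, at 175 CPM, stood apart from the other 3 WT livers, its gap being 0.896 of the range on the log2 CPM scale. On that scale it was the only such liver among 54 groups of 4 livers searched, where chance gives about 3. On the CPM scale its gap was 0.906 of the range, and Serpina3n in WT 1, at 1456 CPM, also stood apart from the other 3 WT livers with a gap of 0.905, so 2 such livers were found.

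Genotype differences took opposite signs in the 2 animal number series, with no overlap of genotypes in either, for 9 serpins and 2 cluster sums. Of all genes tested, 4.76% crossed from lower to higher in S155A, as 8 of these serpins did. The opposite crossing, that of Serpinc1, was seen in 4.72% of all genes. The sums hold Serpina1b, Serpina1d, Serpina3m and Serpina3n, so they are not separate from the 9 serpins. The edgeR interaction, high minus low series, was 0.42 for Serpina10, 1.02 for Serpinf2, 2.37 for Serpina3n, 0.42 for Serpina1b, 1.64 for Serpina3m, 1.25 for Serpinb9, 0.73 for Serping1, 0.39 for Serpina1d and -0.28 for Serpinc1 on the log2 scale. For the sum of Serpina1a to Serpina1e it was 0.31 and for the sum of the Serpina3 cluster 1.21. None passed an adjusted p of 0.05 in edgeR, the values lying between 0.21 and 0.617.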

How the results depend on the processing

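Alternatives are counted against the result as reported. For S155A against WT, the count of 0 serpins and of 0 cluster sums at an adjusted p under 0.05 held under every setting tried (DESeq2 or limma-voom in place of edgeR, scaling by library size, by DESeq2 size factors or by TMM without the 50 most abundant genes, a minimum of 1 CPM in 4 mice, no filter beyond 1 count, a robust fit, a block for replicate number or animal series, and each mouse left out), as did the count of 0 serpins whose genotypes do not overlap with a prior count of 0.5, library size or DESeq2 size factors. Over all genes DESeq2 called 6. Serpins at an unadjusted p under 0.05 numbered 1 as reported, 0 with limma-voom, 2 with no filter and 0 to 3 with a mouse left out (0 without WT 4 or S155A 1, 2 or 3, 2 without WT 2, 3 without S155A 4). Log2 differences near 0 turned sign: Serpina6 was 0.17 with limma-voom, 0.18 with the replicate block and 0.11 with the series block; Serping1 was 0.0047 with limma-voom and 0.0040 with the replicate block; Serpina1d was -0.0087 with limma-voom, -0.042 with library size, -0.011 with the replicate block and -0.015 with the series block; Serpina1b was -0.015 and the sum of Serpina1a to Serpina1e -0.029 with library size; Serpina3m was -0.014 with library size and -0.040 with the series block. With each mouse left out, 16 differences took both signs, and their ranges were Serpinb1a -0.085 to 0.36, Serpina3n -0.44 to 0.47, Serping1 -0.090 to 0.14, Serpind1 -0.17 to 0.040, Serpina6 -0.33 to 0.68, Serpinc1 -0.051 to 0.042, Serpina1b -0.045 to 0.11, Serpina3m -0.16 to 0.32, Serpina1d -0.087 to 0.10, Serpina11 -0.17 to 0.0083, Serpinb6a -0.085 to 0.075, Serpina1e -0.16 to 0.63, the sum of Serpina3 cluster -0.37 to 0.055, the sum of Serpinb1 copies -0.082 to 0.36, the sum of Serpina1a to Serpina1e -0.046 to 0.088, the sum of Serpinb6 copies -0.069 to 0.075. The interaction gave 3 serpins and 285 genes with DESeq2, 6 serpins and 765 genes with no filter and 4 genes, none a serpin, with the replicate block, and with a mouse left out 0 to 2 serpins and 0 to 40 genes at an adjusted p under 0.05 (2 serpins and 40 genes without WT 4) and 5 to 10 serpins at an unadjusted p under 0.05. The series comparison gave 3 serpins and 406 genes with DESeq2, 3 serpins and 514 genes with no filter, where 8 serpins passed at an unadjusted p under 0.05, and with a mouse left out 0 to 2 serpins and 0 to 111 genes (2 serpins and 111 genes without WT 3) and 4 to 8 serpins unadjusted. The cause of these changes was not tested. The share of all genes at an unadjusted p under 0.05 was not counted under these settings. Mice with the same replicate number correlated at 0.06, 0.17, -0.11 and 0.13 in their deviations from the genotype means. Of the WT mice, 3 of 4 correlated best with the S155A mouse of their own number. Whether the numbers pair the mice was not tested, and the main model did not use them as pairs. In both genotypes replicates 1 and 4 are low series and 2 and 3 high series, so the replicate block also takes up the series. The replicate block changed no call of a serpin. The effect of depth was not tested; counts were lowest in Serpini1, Serpina3h and the 14 untested serpins with counts.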
